A study of Homo sapiens with 9 samples.

Results

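The 5 DIP2C+/- clones of the human colorectal carcinoma line RKO, named A6-C9, A9-A12, F6-A7, G1-A5 and H9-A4, were compared with 2 samples of the parental line. They were chosen by the genotype in the sample labels, and together these are 7 of the 9 RNA sequencing libraries of the series. The 2 DIP2C-/- clones were not part of the comparison. Each clone carries 1 targeted DIP2C allele, from which gene targeting with a recombinant adeno-associated virus had removed part of exon 9, and 1 untargeted allele. All 7 samples were grown for 48 h after plating. Each clone grew from a single cell and is represented by 1 library, and the targeted cells had passed through selection with Geneticin and a Cre-expressing virus that removed the selection cassette. No clone that went through these steps with both alleles intact is among the samples analysed, so the genotype and the cloning procedure cannot be told apart. The labels name more clones than the heterozygous clones described from the targeting round, so some of the 5 may descend from the same targeted cell. Nothing says that the 2 parental samples came from separate cultures, and p-values then measure only the spread between these libraries.

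DIP2C belongs to a family of 3 large human proteins, DIP2A, DIP2B and DIP2C, that carry a binding domain for DMAP1, a partner of the maintenance DNA methyltransferase DNMT1, followed by domains that resemble AMP-binding enzymes. A cell that is heterozygous for such a deletion keeps an intact copy of the gene. RKO is a poorly differentiated colon line with functional p53, in which growth arrest is usually read from p53 targets, from inhibitors of cyclin-dependent kinases and from the genes of mitosis.

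Exon 9 of DIP2C lies at chr10:454866-454957 of GRCh37 on the minus strand. It is shown because it is where the targeted allele of every clone was cut; the exon is in capitals and 10 bases of each neighbouring intron are in lower case, 5′ to 3′ on the strand of the transcript.

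DIP2C exon 9: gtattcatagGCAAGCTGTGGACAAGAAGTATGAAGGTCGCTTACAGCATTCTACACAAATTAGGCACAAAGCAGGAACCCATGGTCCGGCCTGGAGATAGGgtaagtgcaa

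DIP2C RNA was lower in all 5 clones than in both parental samples. In CPM, counts scaled to a common library size with the TMM factors of edgeR, DIP2C was at 60.6 and 70.3 in parental RKO, at 56 in H9-A4, 47.1 in F6-A7, 41.2 in G1-A5, 38.6 in A9-A12 and 33.4 in A6-C9. The clone means were 43.3 ± 8.67 (SD, n = 5) against 65.5 ± 6.84 (SD, n = 2), or 66.1% of the parental mean. H9-A4 kept the most, 85.6% of the parental mean, and A6-C9 the least, 51%. Across all genes the log2 fold change of -0.60 ± 0.202 (SE) did not pass the test, with an adjusted p of 0.5 in edgeR's quasi-likelihood test with Benjamini-Hochberg adjustment over all genes tested. Without H9-A4 it was -0.71 ± 0.168 with an adjusted p of 0.0358, and the other alternatives gave adjusted p-values from 0.0557 to 0.925. The files hold 1 value per gene, so RNA of the cut allele was counted together with that of the intact one, and the value does not check how much intact RNA was left. In this and later sentences that list 5 clone values, F6-A7 stands first, then H9-A4 and A9-A12, followed by G1-A5, and A6-C9 stands last. DIP2A, at 55.1 and 60.7 CPM in parental RKO and 90.6, 65.5, 68.6, 69.6 and 78.8 CPM in the clones, and DIP2B, at 107 and 106 CPM in parental RKO and 126, 115, 146, 150.4 and 158 CPM in the clones, were above both parental samples in all 5 clones. Neither passed the test, with adjusted p-values of 0.508 and 0.5.

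The libraries held 16104666 to 21486483 estimated counts, and 14957 of the 23619 genes in the files had at least 10 counts in at least 2 of the 7 libraries. A floor of 3 counts for an undetected gene corresponds to 0.14 to 0.186 CPM at this depth, which covers counting error only. Over the 9580 genes that averaged 10 CPM or more, the 2 parental libraries differed at least 4-fold at 10. H9-A4 stood apart from the other clones and nearer to the parental samples. It differed at least 4-fold from the parental libraries at 58 and 62 genes and from the other 4 clones at 176 to 214. The other 4 clones differed from the parental libraries at 123 to 155 genes and among themselves at 20 to 54, with F6-A7 and A6-C9 the most alike. Since 1 library of 5 differed in this way, the values of every clone are printed and counts are given with and without H9-A4. Markers of colorectal epithelium such as KRT18, at 207 and 263 CPM in parental RKO and 174, 169, 292, 195 and 148 CPM in the clones, were present, although 6 of the 13 markers fixed for that tissue (KRT19, VIL1, CDX1, CDH17, LGALS4 and GPA33) did not pass the filter on low counts. The markers of fibroblasts, endothelium and neurons summed to between 0.602 and 7.74 CPM per list in every library. Of the leukocyte markers only CD68, a lysosomal protein also made by other cells, was above 5 CPM, at 85.4 and 85.4 CPM in parental RKO and 572, 16.2, 669.9, 482 and 663 CPM in the clones.

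**Figure D1:**
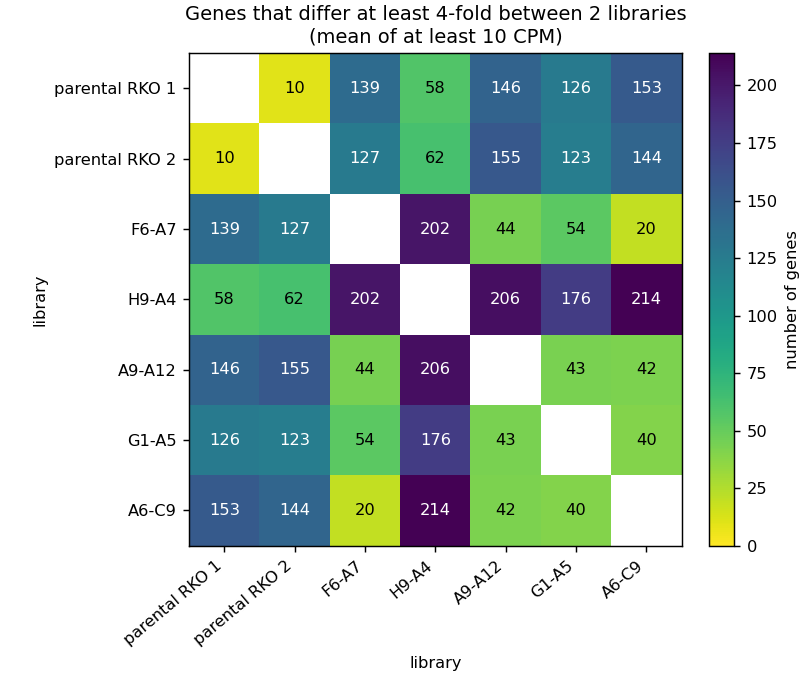
Number of genes that differed at least 4-fold (log2 CPM with a prior count of 2) between each pair of the 7 libraries, among 9580 genes that averaged 10 CPM or more; darker squares hold more genes. The 2 parental samples of RKO differed at 10 genes, H9-A4 differed from each of the other clones at 176 to 214, and the other 4 clones differed from each other at 20 to 54.

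The test over all 7 libraries called 8 genes, all lower in the clones, which is 0.0535% of the 14957 tested. They were TNS4, SLC23A2, NEDD4L, BDNF, KCNQ5, IFITM1 and the long non-coding RNAs MIR100HG and LINC00326, and each was below both parental samples in every clone. Of these, 6 (0.0401%) fell at least 4-fold. Without either parental sample, F6-A7, G1-A5 or A6-C9 only TNS4 was still called, and without A9-A12 3 genes were, while leaving out H9-A4 raised the number of lower genes to 456. With all 7 libraries edgeR called no gene higher, against 521 without H9-A4. In that test of 7, 824 had an unadjusted p under 0.05 with a higher mean and 646 with a lower one, and the Wald test of DESeq2 called 57 genes higher and 60 lower. With limma-voom and sample weights these numbers were 110 and 276. The smallest adjusted p among higher genes, 0.11, was that of CPVL. In bulk RNA, fewer cells with a transcript and less of it per cell cannot be told apart.

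TNS4, at chr17:38632080-38657875 of GRCh37, encodes tensin 4, a focal adhesion adaptor that binds integrin tails. It was at 177 and 165 CPM in parental RKO and 0.611, 1.18, 0.374, 0.243 and 0.405 CPM in the clones. The clone mean was 0.329% of the parental mean, and no clone reached 1% of it. The log2 fold change was -8.26 ± 0.378 (SE) with an adjusted p of 3.58e-05, and TNS4 was called in all 16 alternatives that could test it.

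SLC23A2, at chr20:4833002-4990939, encodes a sodium-dependent transporter of vitamin C, and NEDD4L, at chr18:55711458-56068772, encodes a ubiquitin ligase that limits the epithelial sodium channel. SLC23A2 was at 43.2 and 48.3 CPM in parental RKO and 15.6, 16.5, 14.9, 15.2 and 14.3 CPM in the clones. NEDD4L was at 141 and 147 CPM in parental RKO and 65, 77.4, 69.9, 80.8 and 67 CPM in the clones. The clones lay close together for both genes, H9-A4 included, with clone means of 15.3 ± 0.804 (SD, n = 5) for SLC23A2 and 72 ± 6.83 (SD, n = 5) for NEDD4L. The log2 fold changes were -1.58 ± 0.149 (SE) for SLC23A2, with an adjusted p of 0.0121, and -1.0 ± 0.131 for NEDD4L, with an adjusted p of 0.0493. NEDD4L was the gene nearest to the threshold and lost its call in 10 of 17 alternatives.

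BDNF, at chr11:27676440-27743605, encodes the brain-derived neurotrophic factor, and KCNQ5, at chr6:73331520-73908576, a subunit of voltage-gated potassium channels. BDNF was at 6.63 and 6.63 CPM in parental RKO and 0.611, 0.62, 0.427, 0.292 and 0.76 CPM in the clones. KCNQ5 was at 7.23 and 4.09 CPM in parental RKO and 0.428, 0.395, 0.48, 0.243 and 0.152 CPM in the clones. All clone values of both genes were under 1 CPM, and the 2 parental samples differed more from each other for KCNQ5 than for BDNF. The log2 fold changes were -3.60 ± 0.408 (SE) for BDNF and -4.04 ± 0.471 for KCNQ5, both with an adjusted p of 0.0368. MIR100HG, the host transcript of miR-100, let-7a-2 and miR-125b-1, and LINC00326 were low in parental RKO too. MIR100HG, at chr11:121899033-122427429, was at 4.76 and 4.51 CPM in parental RKO and 0.305, 0.338, 0.213, 0.0487 and 0.101 CPM in the clones, with a log2 fold change of -4.51 ± 0.55 and an adjusted p of 0.0432. LINC00326, at chr6:133275396-133428549, was at 2.57 and 3.06 CPM in parental RKO and 0.183, 0.0563, 0.107, 0 and 0.0507 CPM in the clones, with a log2 fold change of -5.09 ± 0.644 and an adjusted p of 0.0467. These clone values lie near or under the floor of 3 counts.

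IFITM1, at chr11:310041-315272, encodes an interferon-induced membrane protein that hinders the entry of viruses. It was at 8.93 and 11.8 CPM in parental RKO and 0.489, 0.395, 1.07, 0.243 and 0.152 CPM in the clones, with a log2 fold change of -4.45 ± 0.571 (SE) and an adjusted p of 0.0467. Its neighbours IFITM2, at 19.99 and 24.5 CPM in parental RKO and 37.5, 6.88, 36.8, 38 and 30.3 CPM in the clones, and IFITM3, at 28.9 and 43.2 CPM in parental RKO and 48.3, 31.5, 25, 41.9 and 31.8 CPM in the clones, are close in sequence, so reads may have been split between the 3 genes. Neither passed the test, with adjusted p-values of 0.811 and 0.991.

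**Figure D2:**
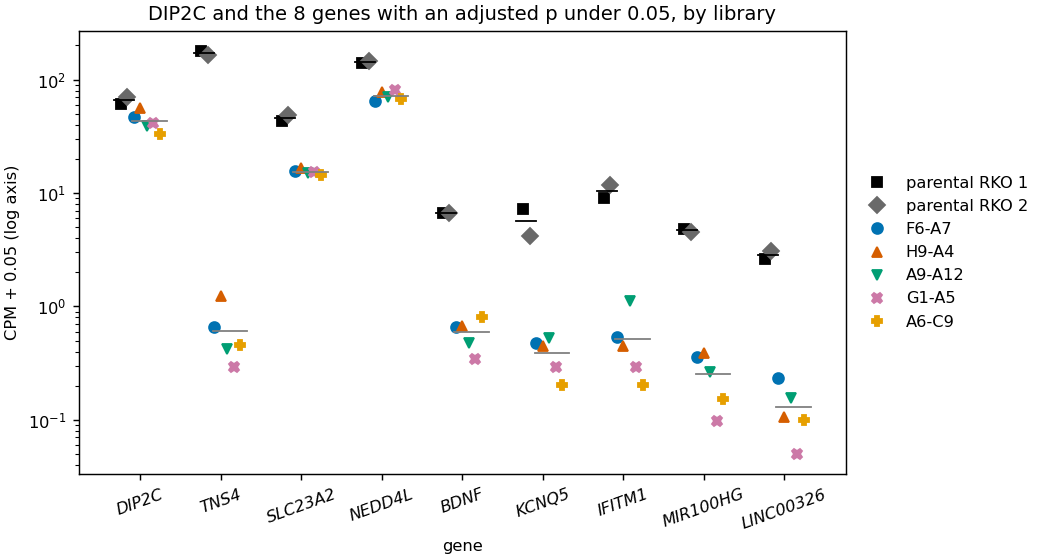
CPM plus 0.05 of DIP2C and of the 8 genes with an adjusted p under 0.05 in each of the 7 libraries, on a log axis; black and grey bars mark the parental and clone means. TNS4 stood at 165 and 177 CPM in parental RKO and between 0.243 and 1.18 CPM in the clones, and for each of the 9 genes shown all 5 clones lay below both parental samples.

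Many more genes had all 5 clones on one side of both parental samples without passing the test. All clones were above both at 1100 genes (7.35% of those tested) and below both at 1092 (7.3%). With a change of at least 4-fold in every clone there were 3 higher genes (0.0201%) and 15 lower genes (0.1%). The 3 higher genes were LGALS8-AS1, PPAN-P2RY11 and INO80B-WBP1, of which the last 2 are read-through transcripts that overlap other genes. The 15 lower genes held 6 of the 8 called ones (TNS4, IFITM1, MIR100HG, LINC00326, KCNQ5 and BDNF).

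The lower genes also included 2 zinc finger genes of the KRAB type on chromosome 19, whose proteins repress transcription. ZNF569, at chr19:37902057-37960177, was at 6.13 and 5.03 CPM in parental RKO and 0.367, 0, 0.32, 0.195 and 0.101 CPM in the clones, and ZFP28, at chr19:57050317-57068177, was at 7.61 and 8.08 CPM in parental RKO and 0.794, 0.225, 0.16, 0.146 and 0 CPM in the clones. Neither passed the test, with log2 fold changes of -4.79 ± 0.675 (SE) and -4.90 ± 0.796 and adjusted p-values of 0.0526 and 0.103. ZFP82, another gene of this type, was at 1.53 and 1.81 CPM in parental RKO and at most 0.225 CPM in any clone. NNMT, which methylates nicotinamide, was at 55.9 and 48.4 CPM in parental RKO and 0.122, 5.18, 0.32, 0 and 0.152 CPM in the clones, so that H9-A4 kept some of it while the other 4 clones were at or near 0. PHLDB2, which anchors microtubules at the cell cortex, was at 57.2 and 58.3 CPM in parental RKO and 0.978, 10.9, 2.83, 4.38 and 4.76 CPM in the clones. FAM198B was at 8.6 and 6.01 CPM in parental RKO and 0.55, 0.338, 0.587, 1.31 and 0.456 CPM in the clones. SYTL3, a synaptotagmin-like partner of Rab27, was at 7.89 and 7.1 CPM in parental RKO and 0.794, 0.845, 1.66, 1.22 and 1.37 CPM in the clones. For these 4 genes the adjusted p-values were 0.292, 0.103, 0.0526 and 0.0526, and all 4 were called without H9-A4, NNMT with a log2 fold change of -8.41 ± 0.438.

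Among the genes that were higher in every clone, INO80B-WBP1 was at 0.11 and 0.777 CPM in parental RKO and 6.72, 2.65, 5.34, 10.8 and 12.9 CPM in the clones. Its reads cannot be told apart from those of INO80B, at 10.5 and 9.22 CPM in parental RKO and 12.1, 6.59, 8.22, 7.69 and 11.9 CPM in the clones, and WBP1, at 10.1 and 12.5 CPM in parental RKO and 8.13, 11.2, 10.03, 4.43 and 5.77 CPM in the clones, so its value is uncertain, as are those of the read-through genes EEF1E1-MUTED and SYNJ2BP-COX16. CPVL, a serine carboxypeptidase, was at 7.45 and 5.59 CPM in parental RKO and 19.9, 18, 14.5, 21.4 and 22.5 CPM in the clones. ARSG, a lysosomal sulfatase, was at 2.14 and 3.16 CPM in parental RKO and 11, 6.42, 7.95, 8.52 and 11.9 CPM in the clones, and SRPX at 4.49 and 7.98 CPM in parental RKO and 14.1, 14.2, 16.8, 19.2 and 18.5 CPM in the clones. The groups did not overlap for any of them, and the log2 fold changes were 1.56 ± 0.26 (SE) for CPVL, 1.79 ± 0.369 for ARSG and 1.41 ± 0.292 for SRPX, with adjusted p-values of 0.11, 0.286 and 0.286. TAPBPL, which edits the peptides of MHC class I, was at 2.35 and 2.69 CPM in parental RKO and 5.5, 5.18, 5.44, 5.11 and 7.04 CPM in the clones. PNPLA7, a lysophospholipase, was at 1.15 and 1.92 CPM in parental RKO and 3.79, 3.66, 9.93, 3.41 and 5.62 CPM in the clones, C8orf31 at 2.14 and 2.9 CPM in parental RKO and 6.23, 5.35, 9.88, 7.69 and 6.18 CPM in the clones and ESPNL at 0.383 and 0.0518 CPM in parental RKO and 8.43, 0.507, 1.33, 2.73 and 15.8 CPM in the clones. H9-A4 exceeded the higher parental sample by little for ESPNL, while A6-C9 held the highest value. None of these 4 passed the test, with adjusted p-values of 0.463, 0.5, 0.448 and 0.5.

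Without H9-A4 the same test called 521 genes higher (3.53% of 14759 tested) and 456 lower (3.09%), of which 93 and 140 changed at least 4-fold. All 8 genes called with H9-A4 were among them. H9-A4 had no part in this fit. Its differences use the same 2 parental libraries that helped to choose these genes, so its median with no change need not be 0, and it was singled out with its distance from the other clones known. Without it the common biological coefficient of variation in edgeR was 0.25, against 0.312 with all 7 libraries. Because of that choice, adjusted p-values without H9-A4 do not keep their stated error rate, here and in all other paragraphs, and are given as descriptions. Over the 521 higher genes the median log2 difference from the parental mean was 1.16 in A6-C9, 1.1 in A9-A12, 0.98 in F6-A7, 0.93 in G1-A5 and -0.16 in H9-A4. H9-A4 lay above both parental samples at 151 of them (29%) and below both at 287 (55.1%), where over all 14957 genes these shares were 35.8% and 35.3%, and it was at least 2-fold lower than the parental mean at 80. Over the 456 lower genes the medians were -1.26, -1.29, -1.14 and -1.21 in the 4 clones and -0.08 in H9-A4, which lay below both parental samples at 225 (49.3%) and above both at 147 (32.2%). H9-A4 was thus below both parental samples more often than over all genes in the higher and the lower genes alike, as a description with no test. Of the genes named by rule or held in the gene lists, 114 were called without H9-A4. On all 7 libraries DESeq2 called 23 of these and limma-voom with sample weights, which gave H9-A4 the lowest weight (0.41), called 50. Across alternatives other than leaving out H9-A4 their adjusted p-values ran from 3.16e-111 to 0.998.

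Of the 10 higher genes with the largest changes in this fit, 8 were below the parental mean in H9-A4, and ESPNL and INO80B-WBP1 were above both parental samples there as in the other clones. ESPNL was at 0.383 and 0.0518 CPM in parental RKO and 8.43, 0.507, 1.33, 2.73 and 15.8 CPM in the clones. LAMB3, the beta chain of laminin-332, was at 33 and 38.5 CPM in parental RKO and 597, 1.8, 355, 155 and 550.5 CPM in the clones. TM4SF1, a surface protein with 4 transmembrane segments, was at 3.56 and 3.37 CPM in parental RKO and 31.5, 0.225, 81.5, 30.8 and 45.6 CPM in the clones, and HDAC9, a class IIa histone deacetylase, at 8.76 and 7.51 CPM in parental RKO and 55.9, 1.47, 92.1, 103 and 83.2 CPM in the clones. For these 3 genes H9-A4 was below both parental samples and every other clone above both. The log2 fold changes without H9-A4 were 3.54 ± 0.506 (SE) for LAMB3, 3.77 ± 0.454 for TM4SF1 and 3.36 ± 0.272 for HDAC9, with adjusted p-values of 0.00335, 0.00116 and 0.000116. FBLN5, an elastic fibre protein, was at 0.274 and 0.622 CPM in parental RKO and 6.97, 0.169, 5.44, 5.21 and 8.66 CPM in the clones. ANGPTL4, an inhibitor of lipoprotein lipase, was at 5.48 and 5.23 CPM in parental RKO and 27, 1.58, 148, 20.4 and 40.9 CPM in the clones, and BCL2A1, an anti-apoptotic member of the BCL2 family, at 0.657 and 0.673 CPM in parental RKO and 4.34, 0.282, 13.4, 2.19 and 9.07 CPM in the clones. The non-coding RNA FLJ35946 was at 1.09 and 3.47 CPM in parental RKO and 38.6, 0.395, 4.22, 18.1 and 35.5 CPM in the clones. A9-A12 held the highest level of ANGPTL4 and BCL2A1 and the lowest of FLJ35946 among the 4.

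Apart from TNS4 and NNMT, the lower genes with the largest changes were nearer to the parental level in H9-A4 than in the other 4 clones. DCLK1, a doublecortin-like kinase studied as a marker of tuft cells and tumour stem cells in the gut, was at 594 and 437 CPM in parental RKO and 7.15, 604, 2.4, 0.438 and 0.81 CPM in the clones. MAP1B, a microtubule-associated protein, was at 115 and 133 CPM in parental RKO and 1.16, 93.8, 0.534, 1.07 and 1.32 CPM in the clones, and SLC1A3, a glutamate transporter, at 53.5 and 64.7 CPM in parental RKO and 0.489, 46.7, 0.427, 0.146 and 0.203 CPM in the clones. H9-A4 kept DCLK1 above both parental samples, and MAP1B and SLC1A3 somewhat below them. The log2 fold changes without H9-A4 were -7.62 ± 0.719 (SE) for DCLK1, -6.92 ± 0.255 for MAP1B and -7.56 ± 0.321 for SLC1A3, with adjusted p-values of 0.000257, 1.14e-06 and 1.8e-06. PDE7B, which degrades cyclic AMP, was at 73.7 and 81.1 CPM in parental RKO and 1.16, 141, 0.48, 0.73 and 0.608 CPM in the clones. GRPR, the receptor of gastrin-releasing peptide, was at 23.3 and 24.9 CPM in parental RKO and 0.794, 25.4, 0.0534, 0.0973 and 0.0507 CPM in the clones, and the long non-coding RNA UCA1 at 12.1 and 15 CPM in parental RKO and 0.183, 22.5, 0.107, 0.146 and 0.101 CPM in the clones. In these 3 genes H9-A4 was the highest of all 7 libraries. TSPAN15, a tetraspanin that accompanies the protease ADAM10, was at 11.7 and 11.4 CPM in parental RKO and 0.122, 14.9, 0.107, 0.195 and 0.253 CPM in the clones, and KCTD12, an auxiliary subunit of the GABA-B receptor, at 15.9 and 15.2 CPM in parental RKO and 0.244, 7.66, 0.16, 0.195 and 0.355 CPM in the clones.

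**Figure D3:**
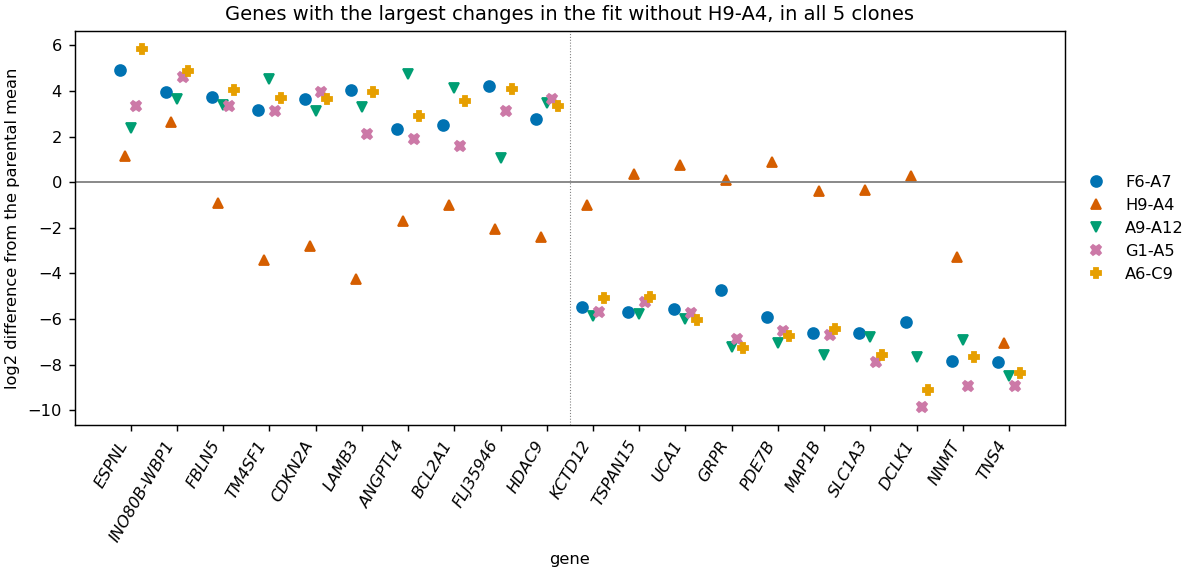
Log2 difference of each of the 5 clones from the mean of the 2 parental samples (log2 CPM with a prior count of 2) for the 10 higher and 10 lower genes with the largest changes in the fit that left out H9-A4. The 4 fitted clones lay on the same side of 0 for each gene. They were spread widely for some, such as ESPNL and FLJ35946, and FLJ35946 was nearer to 0 in A9-A12 than in the other fitted clones. H9-A4 lay below 0 for 8 of the 10 higher genes and within 1 of 0 for 7 of the 10 lower ones, TNS4, NNMT and KCTD12 being the exceptions.

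Of the genes that the study assayed by RT-qPCR, 16 were listed here, most of them picked from its own expression profiles, so their direction is not independent evidence. Over all 7 libraries edgeR and DESeq2 each called 1 of the 16, TNS4, and limma-voom called 6, TNS4 with DCLK1, GRPR, MAP1B, SLC1A3 and UCA1, all lower. Without H9-A4 edgeR called 3 higher and 6 lower. CDKN2A was at 1.21 and 1.66 CPM in parental RKO and 18.8, 0.113, 13.1, 23.4 and 19.1 CPM in the clones, ZEB1 at 17.7 and 20.6 CPM in parental RKO and 86.3, 12.9, 81.6, 52.1 and 86.5 CPM in the clones and CD44 at 28.3 and 24.7 CPM in parental RKO and 184, 1.01, 186, 162 and 285 CPM in the clones. These 3 higher genes showed the opposite direction in H9-A4. Several others were high in some of the clones. HGF, the hepatocyte growth factor, was at 0.657 and 0.311 CPM in parental RKO and 12, 0.395, 0.32, 0.146 and 17.3 CPM in the clones, and CALB2, a calcium-binding protein, at 0.493 and 0.932 CPM in parental RKO and 10.3, 0.564, 0.907, 0.681 and 21.1 CPM in the clones, so that both stood above the other libraries in F6-A7 and A6-C9. IL13RA2, a decoy receptor for interleukin 13, was at 1.21 and 2.38 CPM in parental RKO and 51.8, 0.225, 1.71, 3.55 and 7.65 CPM in the clones, and DCDC2, a doublecortin domain protein, at 0.329 and 0.466 CPM in parental RKO and 4.58, 0.225, 13.9, 0.584 and 4.61 CPM in the clones. RGS4, a regulator of G protein signalling, was at 23.7 and 23.6 CPM in parental RKO and 72.1, 0.225, 37.5, 1.17 and 116 CPM in the clones, above both parental samples in 3 clones and below both in H9-A4 and G1-A5. VIM, the mesenchymal filament protein vimentin, was low, at 0.712 and 0.829 CPM in parental RKO and 1.16, 1.41, 3.52, 0.73 and 0.709 CPM in the clones. CD24 was at 8.11 and 5.91 CPM in parental RKO and 2.44, 12.1, 1.28, 2.97 and 5.62 CPM in the clones. The adjusted p-values over all 7 libraries of HGF, CALB2, IL13RA2, DCDC2, RGS4, VIM and CD24 lay between 0.5 and 0.864.

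In what follows, a call is one of edgeR unless another tool is named. The other gene lists were read by how many members had every clone on one side of both parental samples, beside 7.35% above and 7.3% below over all genes. In the 4 clones other than H9-A4 these shares were 16.4% above and 14.7% below. Calls in a list stand beside those over all genes, which without H9-A4 were 3.53% higher and 3.09% lower. Over all 7 libraries 824 of the 14957 genes had an unadjusted p under 0.05 in edgeR with a higher mean, and 646 with a lower one. Over all genes tested the median log2 fold change was 0.02, and 0.01 and -0.03 with the size factors of DESeq2 and with library size alone. The medians of the lists kept their sign under both scalings, apart from the integrin list (-0.02) and the housekeeping list (-0.01), which changed sign with library size alone.

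Genes of G2 and mitosis were lower across the clones. Of 22 tested, 12 were below both parental samples in all 5 clones and 19 in the 4 clones other than H9-A4, and none was above both in either count. On the 7 libraries together edgeR called no member, although 11 had an unadjusted p under 0.05, all lower, and without H9-A4 it called 8 lower. On the 7 libraries DESeq2 called CENPE and TOP2A lower, and limma-voom these and AURKA, CENPF and KIF20A. The median log2 fold change was -0.42, and by clone the medians were -0.59 in F6-A7, -0.13 in H9-A4, -0.5 in A9-A12, -0.41 in G1-A5 and -0.51 in A6-C9. CENPE, a kinetochore motor, was at 124 and 132 CPM in parental RKO and 58.4, 67.7, 58.5, 73.2 and 71.3 CPM in the clones, with a log2 fold change of -0.96 ± 0.139 (SE) and an adjusted p of 0.0588. TOP2A, the topoisomerase that untangles chromosomes, was at 436 and 418 CPM in parental RKO and 176, 305, 183, 219.6 and 193 CPM in the clones, with -0.99 ± 0.209 and an adjusted p of 0.292. The clones spanned a narrow range for CENPE, while for TOP2A H9-A4 lay between the parental samples and the other clones. MKI67, the proliferation antigen Ki-67, was at 812 and 1012 CPM in parental RKO and 607, 784, 714, 569 and 706 CPM in the clones. KIF20A, a motor of cytokinesis, was at 100.1 and 126 CPM in parental RKO and 62, 98.6, 57, 68.4 and 56.2 CPM in the clones, and CENPF, a kinetochore protein, at 393 and 513 CPM in parental RKO and 312, 333, 229.9, 231 and 278 CPM in the clones. Genes of G1/S and DNA replication had a median of -0.09. By clone it was -0.2 in F6-A7, 0.1 in H9-A4, -0.24 in A9-A12, -0.18 in G1-A5 and -0.2 in A6-C9. Of 33 tested, 1 (CDK4) was above both parental samples in all clones and 4, among them CCND2, CDK6 and MCM10, were below both. Counted over the 4 clones other than H9-A4, 15 were below both and 1 above both. On the 7 libraries edgeR called no member, and DESeq2 and limma-voom each called CDK6 lower. With H9-A4 left out, edgeR called CDK6, E2F2 and MCM10 lower and no member higher. CDK6, a kinase that drives entry into S phase, was at 365 and 337 CPM in parental RKO and 137, 241, 133, 183 and 147 CPM in the clones, with -1.06 ± 0.225 and an adjusted p of 0.292, and CDK4 was at 263 and 259.8 CPM in parental RKO and 343, 302, 319.6, 343 and 369.5 CPM in the clones.

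Inhibitors of cyclin-dependent kinases differed in both directions without H9-A4. Of 8 tested, edgeR and DESeq2 called none over all 7 libraries, where 2 higher and 3 lower members had an unadjusted p under 0.05 in edgeR, and limma-voom called CDKN1C lower. Without H9-A4 CDKN1A and CDKN2A were called higher and CDKN1B, CDKN1C and CDKN2C lower. CDKN1A, which encodes p21, was at 95.6 and 93.5 CPM in parental RKO and 266, 59.9, 364, 409 and 330.4 CPM in the clones. Its log2 fold change was 1.85 ± 0.187 (SE) without H9-A4, with an adjusted p of 0.000376, and H9-A4 itself was below both parental samples. CDKN1A was called in 1 of 17 alternatives, the one without H9-A4. CDKN2A has 1 value in the files for the transcripts of p16 and p14ARF together, and rose by 3.69 ± 0.34 without H9-A4, with an adjusted p of 0.00024. CDKN1B, which encodes p27, was at 34.7 and 33.7 CPM in parental RKO and 20.3, 31.4, 22.3, 21.8 and 17.6 CPM in the clones, and CDKN1C, which encodes p57, at 6.52 and 7.25 CPM in parental RKO and 2.32, 5.07, 1.17, 1.36 and 1.57 CPM in the clones. Both were below the parental samples in all 5 clones, with H9-A4 the nearest to them.

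p53 targets were higher in most clones. Of 25 genes of p53 and its targets, 6 were above both parental samples in all 5 clones (TP53I3, SESN2, XPC, TP53INP1, PHLDA3 and AEN), 18 in the 4 clones other than H9-A4, and none below both. With all 7 libraries edgeR called none, although 8 had an unadjusted p under 0.05, all higher, and without H9-A4 it called 9 higher. On the 7 libraries DESeq2 called GADD45A higher, and limma-voom GADD45A, RRM2B and XPC. The list had a median log2 fold change of 0.62, with clone medians of 0.52, -0.13, 0.49, 0.99 and 0.76. GADD45A, a stress sensor that arrests the cycle, was at 18.7 and 22.6 CPM in parental RKO and 68.1, 19.8, 77.1, 78.6 and 91.7 CPM in the clones, and RRM2B, the p53-induced subunit of ribonucleotide reductase, at 93.9 and 72.7 CPM in parental RKO and 231, 72.3, 233, 428 and 287 CPM in the clones. XPC, which recognises DNA damage, was at 54.2 and 49.99 CPM in parental RKO and 102, 58.7, 81.8, 81.8 and 87.8 CPM in the clones, and TP53INP1 at 7.28 and 9.79 CPM in parental RKO and 18.1, 10.4, 15.4, 33.1 and 28.8 CPM in the clones. H9-A4 was within the parental range for GADD45A and above it for XPC and TP53INP1. The log2 fold changes of GADD45A were 1.70 ± 0.499 (SE) over 7 libraries, with an adjusted p of 0.489, and 1.93 ± 0.18 without H9-A4, with an adjusted p of 0.000245. G1-A5 held the highest RRM2B and TP53INP1. It also stood alone at GDF15, a secreted stress factor that p53 can induce, which was at 15.6 and 25.9 CPM in parental RKO and 41.7, 16.7, 38.2, 256 and 12.7 CPM in the clones.

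Among 32 genes of the BCL2 family, caspases and death receptors, 9 were called higher and 1 lower without H9-A4, beside 3.53% and 3.09% of all genes. Over all 7 libraries edgeR, DESeq2 and limma-voom called none, and 5 higher members had an unadjusted p under 0.05 in edgeR. No member had all 5 clones on one side of both parental samples. FAS was at 22.3 and 18.4 CPM in parental RKO and 41.7, 13.6, 36.7, 53.5 and 45.1 CPM in the clones, TNFRSF10B, a receptor of the death ligand TRAIL, at 97.4 and 105 CPM in parental RKO and 217, 79.7, 227, 307 and 228 CPM in the clones, and CASP10, an initiator caspase, at 3.56 and 4.35 CPM in parental RKO and 9.78, 2.54, 18, 28.5 and 10.3 CPM in the clones. FAS, TNFRSF10B, BBC3 and BAX are also in the p53 list, and all of these but BAX are among the genes called higher without H9-A4 in both lists. BCL2L11, which encodes the pro-apoptotic BIM, was the lower one, at 10.7 and 13.5 CPM in parental RKO and 7.09, 16.9, 5.98, 5.74 and 4.86 CPM in the clones. In H9-A4 BCL2L11 was the highest of all libraries and FAS, TNFRSF10B and CASP10 were the lowest.

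Mesenchymal genes divided by clone. Of 24 listed, 15 passed the filter, and those that did not included TWIST1, CDH2, SPARC and MMP2. The 1 member with all clones below both parental samples was TAGLN, an actin-binding protein of contractile cells, at 88.5 and 81.4 CPM in parental RKO and 10.3, 69.9, 33.7, 5.01 and 15.3 CPM in the clones, and none was above both. Without H9-A4, 5 members, among them ZEB1, LOX, ACTA2 and CD44, were called higher and TAGLN lower. ACTA2, smooth muscle actin, was at 0.931 and 0.932 CPM in parental RKO and 8.8, 0.169, 8.06, 3.31 and 11.2 CPM in the clones. ZEB1, a repressor of epithelial genes, had a log2 fold change of 2.00 ± 0.237 (SE) without H9-A4, with an adjusted p of 0.00104, and CD44, the hyaluronan receptor, one of 2.95 ± 0.251, with an adjusted p of 0.000156. The clone medians were 0.73, -0.28, 0.78, -0.06 and 0.73. S100A16, a calcium-binding protein outside this list, was among the 6 genes with the largest spread between clones, at 75.7 and 103 CPM in parental RKO and 641, 0.0563, 865, 450.0 and 645 CPM in the clones, and CD68 and GSTM1, a glutathione transferase, at 17.5 and 18.3 CPM in parental RKO and 27.2, 0.0563, 35.3, 29.1 and 33.8 CPM in the clones, were likewise lowest in H9-A4.

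Epithelial junction genes and keratins had a median of -0.25. Of 21 tested, 1 (CLDN4, under 1 CPM) was above both parental samples in all clones and 4, among them TJP3, KRT8 and PKP2, were below both. MARVELD3, a tight junction membrane protein, was at 7.5 and 7.41 CPM in parental RKO and 0.367, 8.23, 0.32, 0.487 and 0.506 CPM in the clones, and H9-A4 held its highest level. Its log2 fold change without H9-A4 was -4.12 ± 0.392 (SE), with an adjusted p of 0.000269. PKP3, a desmosome plaque protein, was at 98.6 and 101 CPM in parental RKO and 37.5, 145, 59.6, 61.3 and 28.8 CPM in the clones. CDH1, which encodes E-cadherin, did not pass the filter.

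Of 35 integrin, laminin and focal adhesion genes tested, edgeR and DESeq2 called TNS4 over all 7 libraries and limma-voom TNS4 and ITGB5, all lower. Without H9-A4 edgeR called 6 higher and 3 lower. LAMA1, the alpha chain of laminin-111, was at 100.1 and 126 CPM in parental RKO and 693, 3.78, 584, 2064 and 831 CPM in the clones, and PXN, the adaptor paxillin, at 124 and 129.5 CPM in parental RKO and 327, 73.8, 554, 345 and 336 CPM in the clones. ITGB1, the common beta subunit of integrins, was at 589.6 and 479.9 CPM in parental RKO and 1024, 384, 1454, 1001 and 1253 CPM in the clones, while ITGB5 was at 92.1 and 114 CPM in parental RKO and 36.7, 84.3, 52.5, 67.6 and 33.3 CPM in the clones. H9-A4 was the lowest of all libraries for LAMA1, PXN and ITGB1, and its ITGB5 lay between the parental samples and the other clones. CAV1, the main protein of caveolae, was at 77 and 80.2 CPM in parental RKO and 5.44, 54.4, 0.587, 4.33 and 11.6 CPM in the clones and lowest in A9-A12.

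Genes of ERBB receptors and of ERK feedback lay on both sides of the parental level. Of 23 tested, 7 were above and 5 below both parental samples in the 4 clones other than H9-A4. Over all 7 libraries edgeR and DESeq2 called none, with 1 higher member at an unadjusted p under 0.05 in edgeR, and limma-voom called ERBB3 lower. Without H9-A4 DUSP5, DUSP6, SPRY4 and FOSL1 were called higher and ERBB3 and SPRY2 lower. DUSP5, a nuclear phosphatase of ERK, was at 61.9 and 86.4 CPM in parental RKO and 340.3, 10.8, 297, 392 and 352 CPM in the clones, and SPRY4, an inhibitor of the pathway, at 170.2 and 190.3 CPM in parental RKO and 448, 98.4, 596, 472 and 465 CPM in the clones. ERBB3, a receptor of neuregulins, was at 60.3 and 68.7 CPM in parental RKO and 8.92, 93.2, 9.13, 11.8 and 3.9 CPM in the clones, and SPRY2, a relative of SPRY4, at 73 and 79.3 CPM in parental RKO and 21.9, 140.2, 19.4, 20.7 and 30.04 CPM in the clones. H9-A4 was outside the parental range on the other side for all 4. Among 14 NF-kB targets and cytokines that passed the filter, of 25 listed, LIF and NFKB1 were called higher without H9-A4. LIF, a cytokine of the interleukin 6 family, was at 66.9 and 75.2 CPM in parental RKO and 338, 32.2, 363, 299.5 and 306 CPM in the clones, and NFKB1 was above both parental samples in all 5 clones, at 65.8 and 61.5 CPM in parental RKO and 86.7, 71, 91.5, 92.3 and 90.01 CPM in the clones. IL8, IL6 and the chemokines CXCL1 and CXCL2 did not pass the filter.

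Among interferon-response genes IFITM1 alone was called over all 7 libraries, by edgeR, DESeq2 and limma-voom, and it was lower in the clones. Of 28 tested, 4 (14.3%) were below both parental samples in all 5 clones (IFITM1, IFIT1, OAS3 and IRF7) and none above both. In the 4 clones other than H9-A4, 6 of the 28 were above and 4 below, beside 16.4% and 14.7% of all genes. Without H9-A4, 2 members, among them IFI35, were called higher and IFITM1 lower. OAS3, a sensor of double-stranded RNA, was at 106 and 105 CPM in parental RKO and 34.2, 80.5, 86.7, 71.8 and 35.6 CPM in the clones, and IRF7, a transcription factor, at 4.82 and 4.82 CPM in parental RKO and 1.71, 3.83, 2.99, 1.85 and 0.81 CPM in the clones. IFIT1 was at 1.86 and 1.86 CPM in parental RKO and 0.733, 1.47, 1.17, 1.22 and 0.861 CPM in the clones. HLA-B, a class I antigen, was at 76.2 and 47.1 CPM in parental RKO and 81.9, 54.4, 88.2, 156 and 157 CPM in the clones. A6-C9 and F6-A7 held the lowest OAS3, and G1-A5 and A6-C9 the highest HLA-B. The promoters of 3 of the 4 lower genes are shown because interferon acts on its targets through a short element near their starts. IRF7 is not in the promoter table. Each is 300 bases on the strand of the gene from RefSeq (GRCh38.p14), with both strands searched for GAAANNGAAA, the core of the interferon-stimulated response element, and its matches in capitals.

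IFITM1 promoter, chr11:313790-314089, plus strand: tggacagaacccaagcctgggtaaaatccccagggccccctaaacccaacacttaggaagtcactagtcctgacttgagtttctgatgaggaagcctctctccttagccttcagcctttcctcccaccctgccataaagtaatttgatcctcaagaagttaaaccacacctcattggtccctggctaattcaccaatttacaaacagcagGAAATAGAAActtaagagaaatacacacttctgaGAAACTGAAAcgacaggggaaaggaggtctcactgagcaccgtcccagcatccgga
IFIT1 promoter, chr10:89392373-89392672, plus strand: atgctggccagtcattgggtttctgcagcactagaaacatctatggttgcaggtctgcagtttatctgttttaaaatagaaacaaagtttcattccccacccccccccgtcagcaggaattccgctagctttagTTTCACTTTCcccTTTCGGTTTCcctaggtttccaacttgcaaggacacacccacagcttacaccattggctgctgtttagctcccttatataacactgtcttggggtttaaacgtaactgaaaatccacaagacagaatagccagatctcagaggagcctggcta
OAS3 promoter, chr12:112938224-112938523, plus strand: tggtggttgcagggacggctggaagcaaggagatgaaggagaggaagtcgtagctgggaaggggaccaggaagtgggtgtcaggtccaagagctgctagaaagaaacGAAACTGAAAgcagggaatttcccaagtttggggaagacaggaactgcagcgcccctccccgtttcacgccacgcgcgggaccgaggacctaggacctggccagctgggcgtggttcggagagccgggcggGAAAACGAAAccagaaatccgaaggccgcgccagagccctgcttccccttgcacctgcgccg

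Each of the 3 held 2 matches, on the plus strand in IFITM1 and OAS3 and on the minus strand in IFIT1. Of 35116 promoters of this length in the table, 3.57% held at least 1. Of the 28 interferon genes tested, 21 had a promoter in the table and 15 of these held a match, among them genes whose clones overlapped the parental samples, such as IFITM3. A match is a description of the sequence.

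TGF-beta and BMP genes were lower in part. Of 24 tested, 4 were below both parental samples in all 5 clones (TGFB2, SMAD7, BAMBI and PMEPA1), 11 in the 4 clones other than H9-A4, and none above both. SMAD7, SMAD9 and PMEPA1 were called lower without H9-A4. PMEPA1, a TGF-beta-induced inhibitor of that pathway, was at 7.23 and 7.36 CPM in parental RKO and 0.55, 5.63, 0.267, 0.584 and 0.253 CPM in the clones, and SMAD7, the inhibitory SMAD, at 10.2 and 9.07 CPM in parental RKO and 2.81, 5.75, 3.9, 2.68 and 1.47 CPM in the clones. For SMAD7 H9-A4 was midway between the groups. The median log2 fold change was -0.29, with -0.07 in H9-A4 and -0.58 to -0.3 in the other clones. ID1, a target of BMP signals, was at 29.5 and 36 CPM in parental RKO and 5.19, 48.8, 2.67, 21.4 and 9.42 CPM in the clones. SMAD3, at 69 and 78 CPM in parental RKO and 15.7, 64.7, 75.5, 30.6 and 15 CPM in the clones, was low in 3 clones and near the parental level in A9-A12 and H9-A4.

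Among the blood vessel and growth factor genes, NRP2, JAG1 and CTGF were below both parental samples in all 5 clones, of 22 tested, and none was above both. JAG1, a ligand of Notch, was at 272 and 352 CPM in parental RKO and 15.6, 109, 11.4, 15.2 and 20.7 CPM in the clones, and CTGF, a matricellular protein, at 29 and 29.2 CPM in parental RKO and 0.55, 10.8, 0.48, 2.58 and 1.67 CPM in the clones. NRP2, a co-receptor of VEGF, was at 39.2 and 46.8 CPM in parental RKO and 12.2, 32.7, 12.7, 12.6 and 14.4 CPM in the clones, and its relative NRP1 at 1.21 and 2.12 CPM in parental RKO and 14.2, 1.01, 7.1, 9.44 and 22.1 CPM in the clones. The 2 neuropilins thus moved in opposite directions in the 4 clones other than H9-A4, with log2 fold changes of -1.73 ± 0.167 (SE) and 2.98 ± 0.525 without it and adjusted p-values of 0.000292 and 0.00964. JAG1 reached -4.31 ± 0.214 without H9-A4, with an adjusted p of 6.64e-06, against -3.18 ± 0.752 and an adjusted p of 0.381 over all 7 libraries. The doublecortin and neuronal cytoskeleton genes summed to 818 and 692 CPM in parental RKO, 876 CPM in H9-A4 and 30.9 to 58.2 CPM in the other clones, and DCLK1 and MAP1B made up most of it in parental RKO and H9-A4. Of 11 tested, MAP1B alone was below both parental samples in all clones, and DCLK1, MAP1B, TUBB3 and STMN3 were called lower without H9-A4. TUBB3, a neuronal tubulin, was at 49.4 and 62.1 CPM in parental RKO and 11.3, 97.8, 16.8, 9.34 and 19.3 CPM in the clones, and STMN3, which destabilises microtubules, at 47 and 45.1 CPM in parental RKO and 17.7, 66.7, 11.1, 10.9 and 15.9 CPM in the clones.

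Genes of DNA methylation were listed with the DIP2 family. Of 21 tested, DIP2A and DIP2B were above and DIP2C and HELLS below both parental samples in all clones. Over all 7 libraries edgeR and DESeq2 called none, with 1 higher and 3 lower members at an unadjusted p under 0.05 in edgeR, and limma-voom called DNMT3B lower. Without H9-A4, DIP2C, DNMT3A, DNMT3B and TET3 were called lower. DNMT3B, a de novo methyltransferase, was at 22.8 and 26.3 CPM in parental RKO and 8.37, 23.5, 12.6, 11.1 and 8.86 CPM in the clones, with -1.27 ± 0.222 (SE) and an adjusted p of 0.00955. DNMT3A was at 15.8 and 17.2 CPM in parental RKO and 9.84, 21.8, 7.58, 6.13 and 6.69 CPM in the clones, and TET3, which oxidises methylcytosine, at 105 and 116 CPM in parental RKO and 66.8, 121, 74.4, 78.5 and 67.1 CPM in the clones. H9-A4 was above both parental samples for DNMT3A and TET3. Housekeeping genes had a median of 0.04, and of 12 tested GUSB, at 82.8 and 97 CPM in parental RKO and 112, 131, 108, 102 and 133 CPM in the clones, was above both parental samples in all clones. GAPDH, at 4007 and 3722 CPM in parental RKO and 2492, 5212, 2444, 2720.0 and 2184 CPM in the clones, was called lower without H9-A4, with -0.65 ± 0.131 and an adjusted p of 0.0179.

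**Figure D4:**
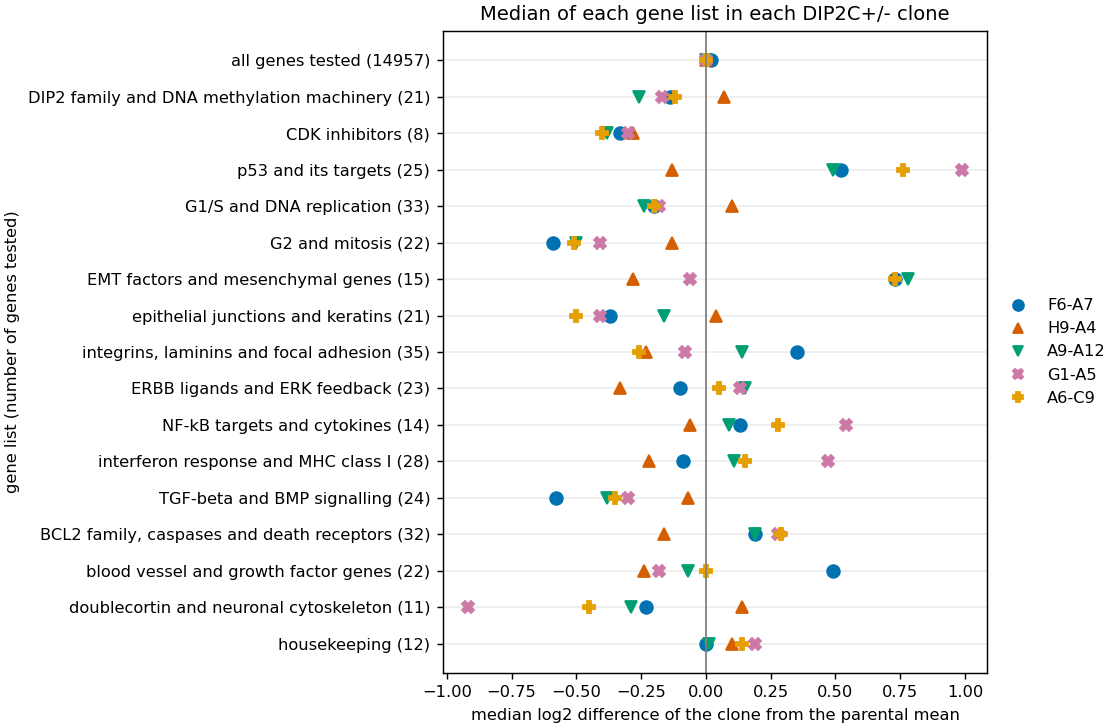
Median log2 difference from the parental mean of each gene list in each of the 5 clones, with the number of genes tested in brackets; the top line holds all 14957 genes. The G2 and mitosis list lay below 0 in all clones (-0.59 to -0.13), the p53 list between 0.49 and 0.99 in 4 clones and at -0.13 in H9-A4, and the housekeeping list between 0 and 0.19.

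Each clone also differed from the parental mean in its own genes, and these differences have no replicate check since each clone is 1 library. At least 4-fold higher were 216 genes in F6-A7 (1.44%), 37 in H9-A4 (0.247%), 230 in A9-A12 (1.54%), 126 in G1-A5 (0.842%) and 217 in A6-C9 (1.45%). At least 4-fold lower were 200 (1.34%), 147 (0.983%), 277 (1.85%), 250 (1.67%) and 279 genes (1.87%) in the same order. Of the 464 genes that were 4-fold higher in any clone, 260 were so in exactly 1, and of the 617 lower genes 346. At 67 genes 1 clone was 4-fold higher and another 4-fold lower. These counts include genes with few counts. Over the same genes the 2 parental libraries differed at least 4-fold from each other at 163. Between single libraries on this measure, H9-A4 differed from the parental libraries at 247 and 266 genes and the other clones at 441 to 593.

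The genes with the widest gap between 1 clone and the other 6 libraries were as follows. F6-A7 alone was high in MID1, a ubiquitin ligase of microtubules, at 29.6 CPM against at most 2.03 CPM elsewhere, and in NLRP13, at 69.5 CPM, besides IL13RA2. It was low in SMPDL3B, at 0.489 CPM, where A6-C9 had 1.72 CPM and H9-A4 66.2 CPM. It was also low in the read-through gene ISY1-RAB43, at 0.244 CPM, and the small nucleolar RNA SNORA58, at 3.3 CPM. H9-A4 alone was high in F2R, the thrombin receptor, at 11.3 CPM, in CCNJL at 5.18 CPM and in ANO9 at 13 CPM, and it was the lowest in S100A16 and GSTM1. A9-A12 alone was high in MSN, which encodes moesin and links actin to the membrane, at 51 CPM against at most 0.81 CPM elsewhere. It was also high in ADCYAP1R1, the receptor of the peptide PACAP, at 38.1 CPM and in SPOCD1 at 21.8 CPM, and low in SNX15, a sorting nexin, at 1.5 CPM. G1-A5 alone was high in GDF15, in GREB1 at 17.9 CPM and in the small nucleolar RNA SNORD83A at 3198 CPM. A6-C9 was the highest in AMOTL1, a partner of YAP at tight junctions, which was at 1.21 and 1.14 CPM in parental RKO and 15.2, 0.789, 16.8, 5.84 and 138 CPM in the clones, so that 3 other clones were above both parental samples too. A6-C9 alone was high in RASSF8 at 41.8 CPM and in LSAMP, a neural adhesion protein, at 8.91 CPM, and low in USP2, a deubiquitinase, at 0.557 CPM.

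Some single libraries listed an expressed gene at exactly 0. ARPC4, a subunit of the Arp2/3 complex, was at 92 and 94 CPM in parental RKO and 137, 108, 150.3, 0 and 129.8 CPM in the clones, and its neighbour TADA3, a subunit of histone acetyltransferase complexes, at 70.6 and 86.3 CPM in parental RKO and 120.3, 78.9, 143, 0 and 119 CPM in the clones. G1-A5 also listed their read-through partner ARPC4-TTLL3 at 0. AKAP13, an anchoring protein of protein kinase A, was listed at 0 in F6-A7 and A6-C9, against 50.9 and 73 CPM in parental RKO. SLC7A2, a transporter of cationic amino acids, and CORO7-PAM16 were listed at 0 in A6-C9 and ZCCHC11 in A9-A12. Since cells commonly use genes such as ARPC4, such a 0 can be a failed estimate and is given only as listed. SEMA3D, a secreted semaphorin, varied without any 0, at 77.1 and 61.4 CPM in parental RKO and 115, 0.395, 0.907, 150.3 and 116 CPM in the clones.

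Blocks of neighbouring genes differed in some clones. Over the 329 genes placed on chromosome 8 that averaged 5 CPM or more, the median log2 difference was 0.16 in A9-A12, 0.21 in F6-A7, 0.28 in A6-C9, 0.33 in G1-A5 and -0.09 in H9-A4, while the 2 parental libraries differed by 0.06. Running medians of 25 neighbouring genes were used to find where, with a limit of 0.6 that was chosen after their values were seen. The outer part of the short arm of chromosome 8, from 163186 to 27472217 of GRCh37, passed it in F6-A7, A9-A12, G1-A5 and A6-C9. Its 60 genes had medians of 0.57, 0.67, 0.7 and 0.69 in these clones and of -0.23 in H9-A4. In all 4 of these clones 45 of the 60 genes were above both parental samples, while H9-A4 was below both at 41 (68.3%). Over all 9630 placed genes the 4 clones were above both at 20.1% and H9-A4 was below both at 36.8%. The block was found by high values in the same 4 clones, so their high share in it follows in part from that choice. At the end of the long arm windows passed the limit in F6-A7, A9-A12 and A6-C9. Their blocks began at 125985537, 134249418 and 124260691. The 75 genes from 124260691 to 145754516 had medians of 0.54, 0.51 and 0.56 in these clones, 0.45 in G1-A5 and 0.01 in H9-A4. Of these genes 50 were above both parental samples in all 4 clones, which again follows in part from how the range was picked. TNFRSF10B lies in the short-arm block, together with TNFRSF10A and TNFRSF10D, and RRM2B and TP53INP1 lie on chromosome 8 outside both blocks. The part of these blocks in the values of their genes was not tested.

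Other blocks belonged to 1 clone, whose own high values picked them. In G1-A5, 43 genes of chromosome 9, from CDKN2A at 21967751 of GRCh37 to RMRP at 35658014, had a median of 0.63, against -0.02 to 0.2 in the other clones. Also in G1-A5, 33 genes of chromosome 2, from 47143008 to 63273622, had a median of 0.45, against -0.2 to -0.09 in the others. In A9-A12, 30 genes of chromosome 12, from 56146247 to 57030600, had a median of 0.48, against -0.04 to 0.09. Only higher windows passed the limit of 0.6. The lowest windows were at -0.59 in F6-A7, -0.5 in A6-C9, -0.49 in A9-A12 and -0.34 in G1-A5, so the lowest of F6-A7 came close to it. No window of H9-A4 exceeded 0.32 in size and none between the 2 parental libraries 0.25. The number of DNA copies of these regions was not measured.

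**Figure D5:**
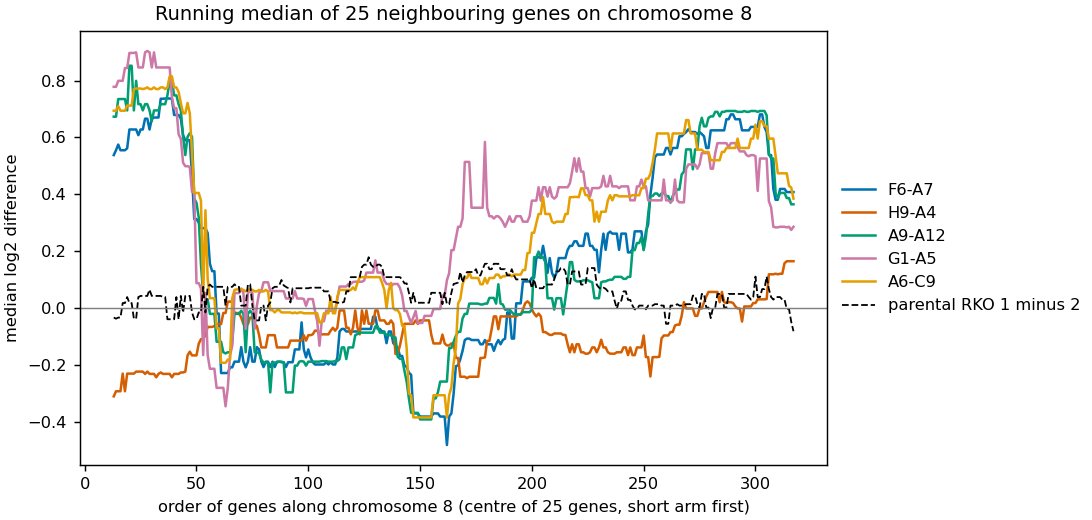
Running median over 25 neighbouring genes of the log2 difference of each of the 5 clones from the parental mean, against the order of the genes along chromosome 8; the dashed line is the difference between the 2 parental libraries. At both ends of the chromosome F6-A7, A9-A12, G1-A5 and A6-C9 lay above 0 together, at most at 0.9, while all windows of H9-A4 over the genome lay between -0.32 and 0.24 and the parental difference within 0.25 of 0.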

How the data were processed

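RNA sequencing measured gene expression in 2 samples of parental RKO and 5 DIP2C+/- clones, 7 of the 9 libraries of the series. The authors sequenced total RNA on the Ion Proton system and aligned reads to hg19 (GRCh37), and the submitters' processing notes name TopHat2 2.0.4 and Cufflinks 2.2.1. The deposited files, 1 per sample, give estimated counts for each gene, which need not be whole. In each library 98.1% to 98.6% of the values were whole multiples, within 0.02 of a step, of a step of 0.711 to 1.11, which corresponds to 17134413 to 24863864 reads. The files therefore hold scaled counts, and an alternative divided them by the step.

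Values were rounded to whole numbers, and genes with at least 10 counts in at least 2 of the 7 libraries were tested with edgeR 4.0.16 (R 4.3.3), with TMM factors, the quasi-likelihood F test and Benjamini-Hochberg adjustment at 0.05 over all genes tested. The SE printed with an edgeR log2 fold change was derived from the test, as the size of the change divided by the square root of F. CPM were scaled by TMM. Differences of a single clone from the parental mean used log2 CPM with a prior count of 2. The scripts were tested on simulated data. No pair of libraries of a group agreed within sampling noise, so none was counted as a duplicate. Alternatives were other scalings and filters, DESeq2 1.42.0, limma-voom 3.58.1 with sample weights, the robust fit, all 9 libraries, another prior count and leaving out each library. Gene positions came from GENCODE 44 on GRCh37, which matched 20238 of 23619 symbols (85.7%).

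Members and gene lists were chosen with earlier results of these data known. Genes were named by rule: DIP2C, called genes, the 10 higher and 10 lower with the largest smallest change over the 5 clones, the same number with the largest change without H9-A4, for each clone the 3 higher and 3 lower with the widest gap to the other libraries, 6 with the largest spread, and members of each list. A mean or highest value of at least 5 CPM was required, so MIR100HG and LINC00326 were named although they missed it. ZFP82 and the 3 genes higher 4-fold in every clone, the read-through partners and the limit for blocks were chosen after values were seen. Some genes that these rules name are not reported here.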

Additional observations from a re-analysis of the deposited data

Results flagged for a closer look

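Among 67 values, 50 genes and 17 list medians, 1 of the 5 clones stood far from the other 4 at 16, by the gap to its nearest clone relative to the range of the 5 (above 0.71). Gap and range were taken on log2 values, while the levels of genes are printed below in CPM. Chance flags about 1 in 20 groups, and the values are not independent of each other, since genes named for their change without H9-A4 are among them. H9-A4 was the distant clone at 15. It was low in FBLN5 at 0.169 CPM, TM4SF1 at 0.225 CPM, CDKN2A at 0.113 CPM, LAMB3 at 1.80 CPM, HDAC9 at 1.47 CPM, ZEB1 at 12.9 CPM and CD44 at 1.01 CPM. It was high in SLC1A3 at 46.7 CPM, MAP1B at 93.8 CPM, PDE7B at 141 CPM, UCA1 at 22.5 CPM, TSPAN15 at 14.9 CPM and KCTD12 at 7.66 CPM. Its median log2 difference was high for the list of G1/S and DNA replication, at 0.1, and low for the list of the BCL2 family, caspases and death receptors, at -0.16. The remaining value was TAPBPL, where A6-C9 was high at 7.04 CPM.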

How the results depend on the processing

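The number of called genes changed with the method. Against 0 higher and 8 lower genes, DESeq2 called 57 and 60 and limma-voom 110 and 276. Lower genes numbered 15 with library size only, with the robust fit and with all 9 libraries, 17 without a filter, 1 with 10 counts in every sample and 5 with values divided by the step. Leaving out 1 library gave 0 to 521 higher and 1 to 456 lower genes, the upper values without H9-A4.

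For calls of at least 4-fold, against 0 higher and 6 lower, DESeq2 gave 15 and 27 and limma-voom 13 and 118. Lower calls numbered 10 with library size only, 11 with the robust fit, 15 without a filter, 0 with 10 counts in every sample and 12 with all 9 libraries, and 0 to 93 higher and 1 to 140 lower with 1 library left out.

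With 1 library left out, 1238 to 2449 genes had every clone above both parental samples and 1221 to 2466 below, and 3 to 54 were 4-fold higher in every clone and 15 to 89 lower. With 10 counts in every sample 0 were 4-fold higher and 2 lower, and a prior count of 0.5 gave 7 higher. With 10 counts in every sample, 84 genes were 4-fold higher and 79 lower in F6-A7, 5 and 52 in H9-A4, 102 and 100 in A9-A12, 63 and 75 in G1-A5, and 99 and 88 in A6-C9. For H9-A4 the higher count was 64 with a prior count of 0.5 and 68 to 73 without 1 parental sample. Fewer genes were tested under the stricter filter. For the other changes the cause was not tested.

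Of 50 named genes under 17 alternatives, the log2 fold change of RGS4 alone changed sign, to -0.26 with limma-voom. No paired analysis was possible because each clone is a line of its own and the replicate numbers of clones and parental samples name no shared culture or day. The 2 parental libraries limit every comparison, and values under 0.186 CPM rest on fewer than 3 counts in the shallowest library.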
